A study of Mus musculus with 4 samples.

Results

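The cells described here are T cells without a CD8 transcript that carried at least 1 unique molecular identifier (UMI, a tag that marks 1 captured RNA molecule) of Gzmk or Eomes. A cell was counted when it had 200 to 7000 genes, at most 5% mitochondrial UMIs and a UMI of Cd3d, Cd3e or Cd3g, but none of Cd8a or Cd8b1 and none of Foxp3, Klrb1c, Zbtb16, Trdc, Tcrg-C1 or Tcrg-C2, genes that mark regulatory, NKT and γδ T cells. Of 4801 cell barcodes, 4157 were T cells within these limits, 2530 of those passed the gates other than Gzmk and Eomes, and 344 had a Gzmk or Eomes UMI. By library, these Gzmk or Eomes-positive non-CD8 T cells numbered 21 in young meninges, 6 in young choroid plexus, 224 in aged meninges and 93 in aged choroid plexus. A Cd4 UMI was present in 114 of the 344 cells (9, 3, 64 and 38, in that order), and 230 had none (12, 3, 160 and 55). Cells with and without a Cd4 UMI are given apart. All values by library below list the young libraries first, meninges before choroid plexus at each age, unless another order is named.

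The study asked how age changes the T cells of the brain borders. Flow cytometry was used to sort T cells, CD4 and CD8, from the meninges or the choroid plexus of untreated female C57BL/6 mice, young (10 weeks) or aged (18 months), and their RNA was profiled with a droplet kit that reads 5′ ends. Each of the 4 libraries pooled 5 mice, so there is 1 library per age and tissue, and young and aged are compared here by values alone, with no test. The libraries held 1111, 718, 1695 and 1277 barcodes and 3737140, 2295950, 4262917 and 3957717 UMIs. The median cell held 3149, 2886, 2152 and 2651 UMIs. Any pair of libraries shared at most 3 barcodes, and none was one of the 344 cells.

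Granzyme K, the product of Gzmk, is a serine protease of cytotoxic granules, and Eomes encodes a T-box transcription factor that drives effector and memory programs in CD8 T and NK cells. CD4 T cells mostly lack this program, but a minority can take up granule genes and the chemokine gene Ccl5, and such cytotoxic CD4 T cells are known to accumulate with age and with chronic stimulation. The meninges and the choroid plexus, which makes cerebrospinal fluid, are borders of the brain where T cells reside in health.

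The label of these cells rests on Gzmk, Eomes and Ccl5, and the cells were chosen by their UMIs of Gzmk and Eomes. Gzmk made up most of the choice. Of the 114 Cd4-positive cells, 99 had Gzmk UMIs alone, 2 had Eomes alone and 13 had both, and of the 230 Cd4-negative cells 172, 12 and 46 did so. The CD8 T cells used for comparison had a Cd8a or Cd8b1 UMI, no Cd4 UMI, a Gzmk or Eomes UMI and otherwise the same gates. Of these 441 cells, 274 had Gzmk alone, 62 Eomes alone and 105 both. The marker was thinly counted, since 52 of the 114 Cd4-positive cells entered on exactly 1 UMI, 22 on 2 UMIs and 40 on 3 or more, with 13 as the highest number in a cell. Cells just outside the rule have 0 UMIs of both genes. The summed level of Gzmk in Cd4-positive cells was 559, 252, 876 and 680 CPM, and that of Eomes 29.4, 0, 73.9 and 63.4 CPM, where CPM is the gene's UMIs scaled to a fixed total of all UMIs in the same cells of the library. These are a description of the choice and are not tested.

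Gzmk lies on mouse chromosome 13 (GRCm38, chr13:113171608-113225908, minus strand), Eomes on chromosome 9 (chr9:118478212-118486132, plus strand), Ccl5 on chromosome 11 (chr11:83525778-83530518, minus strand) and Nkg7 on chromosome 7 (chr7:43437073-43438249, plus strand), all from the GENCODE annotation. The bases just before the RefSeq start of Gzmk, the gene that chose most of these cells, are shown because Eomes binds T-box motifs. They were read from RefSeq's GRCm38.p6 window at chr13:113180966-113181215, minus strand, which falls in an intron of a longer GENCODE transcript of Gzmk. Of the 3 GENCODE transcripts of Gzmk, 0 hold the bases that follow this RefSeq start, so the start itself differs between the annotations.
Gzmk: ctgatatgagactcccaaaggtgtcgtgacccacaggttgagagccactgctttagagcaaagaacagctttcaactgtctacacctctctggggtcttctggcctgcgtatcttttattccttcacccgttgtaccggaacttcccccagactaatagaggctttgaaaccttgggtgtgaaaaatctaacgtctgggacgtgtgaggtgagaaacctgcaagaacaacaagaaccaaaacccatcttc
The letters of a T-box core, AGGTGTG, were searched on both strands (CACACCT on the other), and they do not occur in this window. Either form occurs in 5.1% of 32851 such RefSeq windows. Of 16 genes (the 14 raised in the Cd4-positive cells below, Gzmk and Eomes), 8 had a window and 1, Nkg7, held a match. A match is no binding site, and nothing is drawn from its absence.

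Gzmk or Eomes-positive cells were a small share of the young and a larger share of the aged non-CD8 T cells. They made up 3.20% of 657 such cells in young meninges (95% exact binomial interval 1.99 to 4.84%), 1.43% of 420 in young choroid plexus (0.526 to 3.08%), 24.0% of 932 in aged meninges (21.3 to 26.9%) and 17.9% of 521 in aged choroid plexus (14.7 to 21.4%). Both aged shares were above both young shares, with no overlap of the intervals, which cover counting error only and not the spread between mice. Among cells with a Cd4 UMI the shares were 3.73, 1.86, 20.6 and 18.4%, and among those without one 2.88, 1.16, 25.8 and 17.5%.

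The median depth of the non-CD8 T cells was 3050, 2840, 2135 and 2472 UMIs. With every cell thinned to 1000 UMIs, which left out 6, 2, 26 and 14 shallower cells, the shares were 1.23, 0.478, 16.9 and 10.8%. CD8 T cells, shown beside them in the plot of shares, had a Gzmk or Eomes UMI in 18.6, 20.5, 67.7 and 59.3% of cells. Age in these libraries is 1 library against 1, so the age, the library and the pool of mice cannot be told apart.

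**Figure D1:**
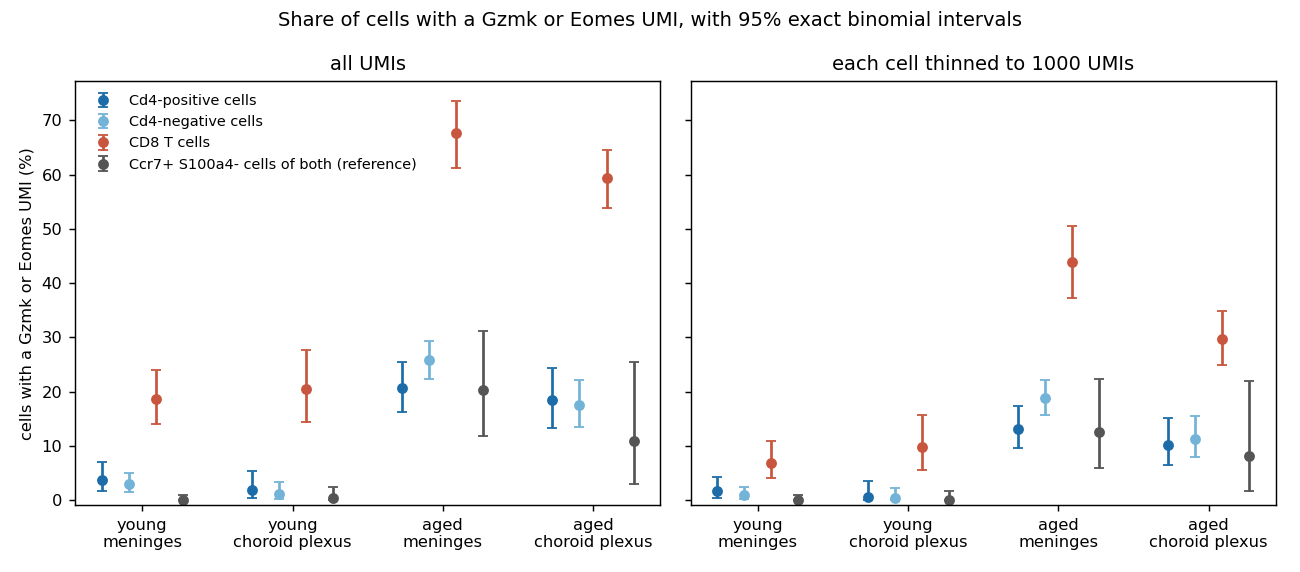
Share of cells with a Gzmk or Eomes UMI (%) in each of the 4 libraries, with all UMIs (left) and with each cell thinned to 1000 UMIs (right); points are single libraries and bars are 95% exact binomial intervals. The share of Cd4-positive cells lies at 3.73 and 1.86% in the young and at 20.6 and 18.4% in the aged libraries, and in the aged libraries its interval overlaps that of the Ccr7-positive S100a4-negative reference cells.

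Droplet libraries hold free RNA, so the same share was read in cells that should lack Gzmk and Eomes, namely non-CD8 T cells with a UMI of Ccr7, the lymph node homing receptor of naive cells, and none of S100a4, a gene of antigen-experienced cells. A Gzmk or Eomes UMI was found in 0 of 392 such cells in young meninges, which allows a share of up to 0.937%, in 1 of 233 in young choroid plexus (0.429%), in 15 of 74 in aged meninges (20.3%, 11.8 to 31.2%) and in 4 of 37 in aged choroid plexus (10.8%, 3.03 to 25.4%). Their median depth was 3076.5, 2853, 2674 and 2724 UMIs, against 3802, 3967, 2303 and 2638 UMIs in the Cd4-positive cells with Gzmk or Eomes. In the aged meninges the share of Cd4-positive cells with a Gzmk or Eomes UMI (20.6%) and in the aged choroid plexus (18.4%) lay within the interval of these reference cells. Whether the reference cells with such UMIs hold free RNA or are Ccr7-positive cells that are not naive was not tested. In the aged libraries the share is read here as not distinguishable from this reference.

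With at least 2 UMIs of Gzmk and Eomes together, a threshold set for the reference cells after their values were seen, the shares of Cd4-positive cells were 2.07, 0, 12.5 and 8.70% and those of the reference cells 0, 0, 10.8 and 10.8%. A narrower reference that also carries Lef1, added after seeing the data, had a Gzmk or Eomes UMI in 0, 1, 3 and 0 of 306, 186, 26 and 17 cells, which is 11.5% in aged meninges (2.45 to 30.2%) and 0% in aged choroid plexus (0 to 19.5%). It had at least 2 such UMIs in 0, 0, 2 and 0 cells. The reference cells of the aged libraries also held more Ccl5 than the young ones (18.8, 5.76, 864 and 592 CPM). They held 0.194 and 0.182 Gzmk UMIs per Ccl5 UMI in aged meninges and aged choroid plexus, against 0.126 and 0.129 in the Cd4-positive cells described here and 0.0534 and 0.0528 in the CD8 T cells. The Cd4-positive and CD8 T cells here were chosen by their Gzmk or Eomes UMIs, which sets their ratios, so nothing is drawn from this comparison. What part free RNA has in these shares was not tested, so the rest of the text turns on genes other than Gzmk and Eomes.

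Ccl5, which encodes the chemokine RANTES, was higher in Cd4-positive cells with a Gzmk or Eomes UMI than in those without. In the cells with one it stood at 3178 CPM in young meninges, 0 in the 3 cells of young choroid plexus, 6951 in aged meninges and 5282 in aged choroid plexus. In the 232, 158, 247 and 169 Cd4-positive cells without one it stood at 799, 428, 2091 and 1133 CPM. Wherever there were more than 3 cells, the cells with Gzmk or Eomes had the higher level, and the Poisson intervals of the 2 sets did not overlap (2607 to 3837 against 738 to 864 CPM in young meninges). In young choroid plexus 0 UMIs among 3 cells allow a Ccl5 level of up to 252 CPM, so the third marker of the label was not seen there.

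Nkg7, a granule membrane protein needed for killing by cytotoxic lymphocytes, followed the same order. Its level was 618, 168, 1404 and 1178 CPM in Cd4-positive cells with Gzmk or Eomes, against 163, 180, 331 and 252 CPM in those without. The level in the 3 cells of young choroid plexus, from 2 UMIs, did not differ from the cells without beyond counting error, and in the other libraries the intervals were apart. A UMI of Nkg7 was present in 77.8, 33.3, 75.0 and 63.2% of cells with Gzmk or Eomes and in 14.2, 16.5, 27.1 and 23.7% of cells without.

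**Figure D2:**
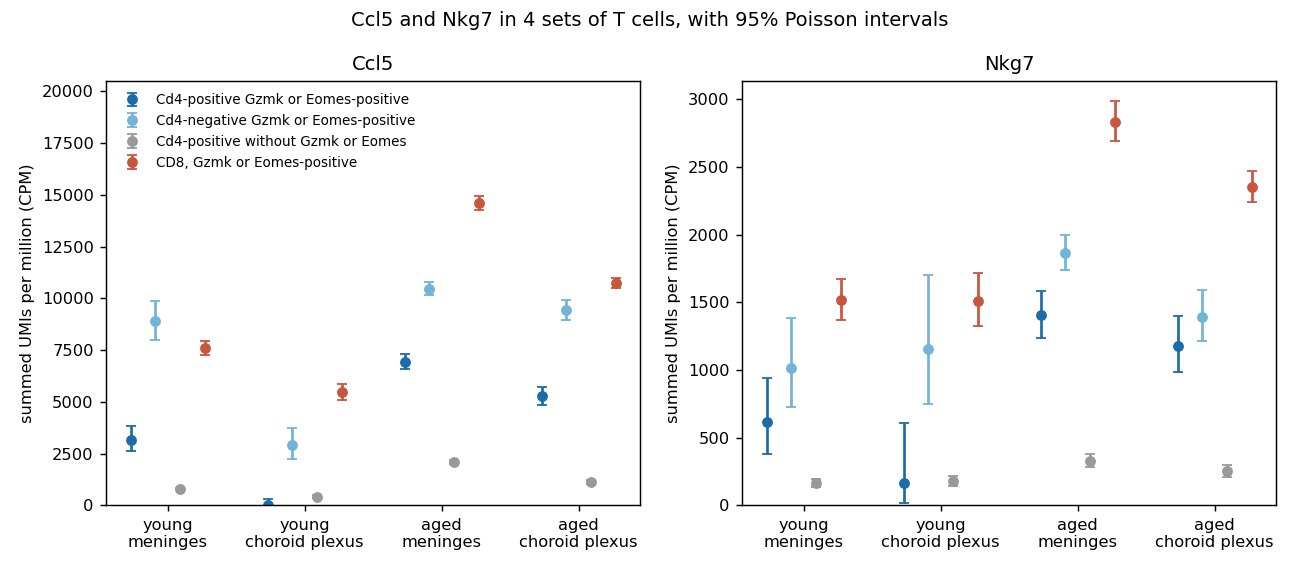
Ccl5 (left) and Nkg7 (right) as summed UMIs scaled to CPM in 4 sets of T cells in each library; points are single libraries and bars are 95% Poisson intervals of the counts. For Ccl5, the Cd4-positive cells with Gzmk or Eomes (3178, 0, 6951 and 5282 CPM) lie between the Cd4-positive cells without (799, 428, 2091 and 1133 CPM) and the CD8 T cells (7603, 5465, 14618 and 10747 CPM) in every library but young choroid plexus.

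The 2 sets of Cd4-positive cells were compared over all genes in summed counts per library, with the library as a block (edgeR's quasi-likelihood test with Benjamini-Hochberg adjustment). Young choroid plexus was left out because it holds under 5 cells with Gzmk or Eomes, which leaves 3 pairs. The libraries differ in age or tissue and are not replicates of 1 condition. With 3 pairs, edgeR takes part of its estimate of spread from all genes together. An adjusted p therefore does not show that a difference repeats in each library. Cd74 and Ifng were called higher although their log2 ratios in young meninges, after adding 10 CPM, were -1.25 and -1.70. Of 4442 genes tested, 14 were higher (0.315%) and 15 lower (0.338%) in cells with Gzmk or Eomes, and 248 had an unadjusted p under 0.05. DESeq2, a second tool, called 3 higher and 1 lower, all among the 29. Nkg7 rose by 2.03 on the log2 scale (SE 0.19, edgeR adjusted p = 3.1e-13) and Ccl5 by 1.87 (SE 0.21, edgeR adjusted p = 2.3e-10), each higher in 3 of 3 libraries and called by both tools. Nkg7 was called in each of 12 alternative analyses (log2 fold 1.86 to 2.32) and Ccl5 in 10 of 12 (1.67 to 2.20). Without aged choroid plexus the edgeR adjusted p of Ccl5 was 0.062. The counts turned on single libraries too, with 26 genes higher without young meninges, 3 without aged meninges and 5 without aged choroid plexus, and 13, 7 and 5 lower.

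The third gene called higher by both tools was Cd74, the MHC class II invariant chain of antigen-presenting cells (log2 fold 2.69, SE 0.33, edgeR adjusted p = 4.1e-09). It rested on single cells, since 1 cell gave 56 of 59 Cd74 UMIs in aged meninges and 1 cell gave 24 of 31 in aged choroid plexus. With cells that carried a B cell gene left out, 1 Cd74 UMI remained in each library. B cell markers (among them Cd79a, Cd79b, Ms4a1 and Ighm) were found in 33.3, 33.3, 15.6 and 28.9% of the Cd4-positive cells with Gzmk or Eomes and in 47.0, 42.4, 24.3 and 32.0% of those without. Their summed UMIs in the former were 8, 2, 32 and 38, mostly Ighm (8, 2, 21 and 22), and in the latter 181, 110, 90 and 77 (Ighm 180, 107, 88 and 75). In CPM that is 235, 168, 169 and 344 against 227, 222, 149 and 155, so in the aged libraries the level was higher in the cells with Gzmk or Eomes although fewer of those cells carried a marker. In the cells with Gzmk or Eomes, Cd79a, Cd79b and Ms4a1 were at 0 in both young libraries. Without every cell that had a B cell marker, Nkg7 kept a log2 fold of 1.89 and Ccl5 of 2.06.

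Igfbp4, which is abundant in naive T cells, was the gene called lower by both tools. No UMI of Igfbp4 was counted in the Cd4-positive cells with Gzmk or Eomes of young meninges, aged meninges and aged choroid plexus, against 649, 152 and 111 CPM in the cells without. Set against the limit of 3 UMIs per library, Igfbp4 was at least 7.35-fold, 9.60-fold and 4.08-fold lower in these libraries. It was called in 11 of 12 alternatives.

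Other granule and signalling genes rose by edgeR alone. Slamf7, a receptor of the SLAM family, stood at 58.9, 68.6 and 45.3 CPM in young meninges, aged meninges and aged choroid plexus against 17.5, 9.92 and 4.03 CPM without Gzmk or Eomes (log2 fold 2.50, SE 0.53, edgeR adjusted p = 0.0044). It rested on 20 UMIs in all. Sh2d1a, which encodes the adaptor SAP used by SLAM receptors, stood at 206, 285 and 435 against 116, 160 and 131 CPM (log2 fold 1.11, SE 0.24, edgeR adjusted p = 0.0052). Both were higher in 3 of 3 libraries. Leaving out aged meninges or aged choroid plexus ended the call of Slamf7 (edgeR adjusted p = 0.723 and 0.141) and of Sh2d1a (0.164 and 0.998).

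Ctsw, which encodes the protease cathepsin W of cytotoxic cells, stood at 647, 369 and 254 CPM against 163, 188 and 238 CPM in the same libraries (log2 fold 0.86, SE 0.23, edgeR adjusted p = 0.046). In aged choroid plexus the levels were close, and the call was lost without any 1 of the 3 libraries. Over the 12 alternatives Ctsw was called in 1. Xcl1, a chemokine that attracts dendritic cells, stood at 58.9, 179 and 118 against 50.1, 34.7 and 72.6 CPM (log2 fold 1.37, SE 0.35, edgeR adjusted p = 0.031), and this call too was lost without any 1 library. Ifng, the gene of interferon-γ, stood at 0, 137 and 353 against 22.5, 102 and 30.2 CPM (log2 fold 1.57, SE 0.36, edgeR adjusted p = 0.010). A single cell of aged choroid plexus gave 34 of its 39 Ifng UMIs there, and without that library the log2 fold was 0.26. The call was lost without young meninges as well (edgeR adjusted p = 0.187).

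The other genes called higher were the cell-cycle and chromatin genes Pclaf, Stmn1, Hmgb2, Hist1h2ap, Hist1h1e and Hist2h2bb. With cells that carried a B cell gene left out, 2 genes were called higher, Nkg7 and Ccl5, so the other higher calls ended there. That setting removed any cell with 1 such UMI. It left 6 against 123 cells in young meninges, 54 against 187 in aged meninges and 27 against 115 in aged choroid plexus. What part the smaller number of cells had in the lost calls was not tested. Over the 12 alternatives Pclaf was called in 7, Slamf7, Sh2d1a and Stmn1 in 5 each, Hmgb2 in 4, Ifng in 3 and Xcl1 in 2. Hmgb2, Pclaf and Hist2h2bb were higher in 3 of 3 libraries, and Stmn1, Hist1h2ap and Hist1h1e in the 2 aged ones. Hist1h2ap and Pclaf were concentrated in single cells. In aged meninges 1 cell gave 144 of 254 Hist1h2ap UMIs and 20 of 35 Pclaf UMIs, and in aged choroid plexus 1 cell gave all 11 Pclaf UMIs. Cells with 3 or more UMIs over Mki67, Top2a, Birc5, Stmn1, Pclaf and Ccnb2 were 0 of 9, 0 of 3, 2 of 64 and 1 of 38 with Gzmk or Eomes, and 9 of 232, 5 of 158, 3 of 247 and 4 of 169 without. These cycling cells were also deep (median 8280 UMIs in aged meninges against 2283.5 for the other cells), and the part of depth was not tested.

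Among genes of the naive state, a minority fell. Of 14 listed genes of naive and quiescent T cells, 10 were tested, 3 were lower (Ccr7, Klf2 and Igfbp4) and none higher, with a median log2 fold of -0.83 against -0.02 over all genes. Ccr7 stood at 0, 36.9 and 36.2 CPM with Gzmk or Eomes against 604, 82.7 and 62.5 CPM without, in young meninges, aged meninges and aged choroid plexus (log2 fold -2.10, SE 0.42, edgeR adjusted p = 0.0017). Klf2, which keeps naive T cells in recirculation, stood at 88.3, 385 and 163 against 1117, 524 and 300 CPM (log2 fold -1.15, SE 0.25, edgeR adjusted p = 0.0044). Both calls were lost without young meninges, where the log2 folds became -1.03 for Ccr7 and -0.58 for Klf2 with edgeR adjusted p-values of 0.612 and 0.252. Klf2 was also lost without aged choroid plexus (log2 fold -1.46, edgeR adjusted p = 0.301).

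Tnfrsf4 and Ramp1 were also lower. Tnfrsf4, the costimulatory receptor OX40, stood at 0, 100 and 163 CPM with Gzmk or Eomes against 106, 306 and 395 CPM without, in young meninges, aged meninges and aged choroid plexus (log2 fold -1.56, SE 0.28, edgeR adjusted p = 0.00021). Its call was lost without aged meninges (0.194) or aged choroid plexus (0.0922). Ramp1, a subunit of the receptor for the neuropeptide CGRP, stood at 0, 21.1 and 45.3 against 104, 144 and 157 CPM (log2 fold -2.44, SE 0.43, edgeR adjusted p = 0.000105), and was lost without aged meninges (0.164). With cells that carried a B cell gene left out, or with cells thinned to 1000 UMIs, Igfbp4 was the 1 gene called lower, so the calls of Ccr7, Klf2, Tnfrsf4 and Ramp1 ended there too. Both settings also left fewer UMIs to test. Over the 12 alternatives Ramp1 was called in 7 (log2 fold -4.66 to -1.60), Tnfrsf4 in 6 (-3.24 to -1.30) and Klf2 in 5 (-1.98 to -0.58). Ccr7 was called in 7 of the 11 alternatives that tested it (-3.07 to -1.03). Tnfsf8, which encodes the TNF family ligand CD153, stood at 0, 116 and 136 CPM against 27.6, 235 and 264 CPM, lower in 3 of 3 libraries but not past the threshold (log2 fold -1.04, SE 0.29, edgeR adjusted p = 0.0833). The other genes called lower were Ckb, Ly6c1, Il6ra, Tmem176b, Socs2, Sostdc1, Spp1, Zfp36, Ppp1r15a and Ier2. Of these, Ly6c1 stood on 2 UMIs with Gzmk or Eomes and all Spp1 UMIs of these cells came from aged choroid plexus.

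**Figure D3:**
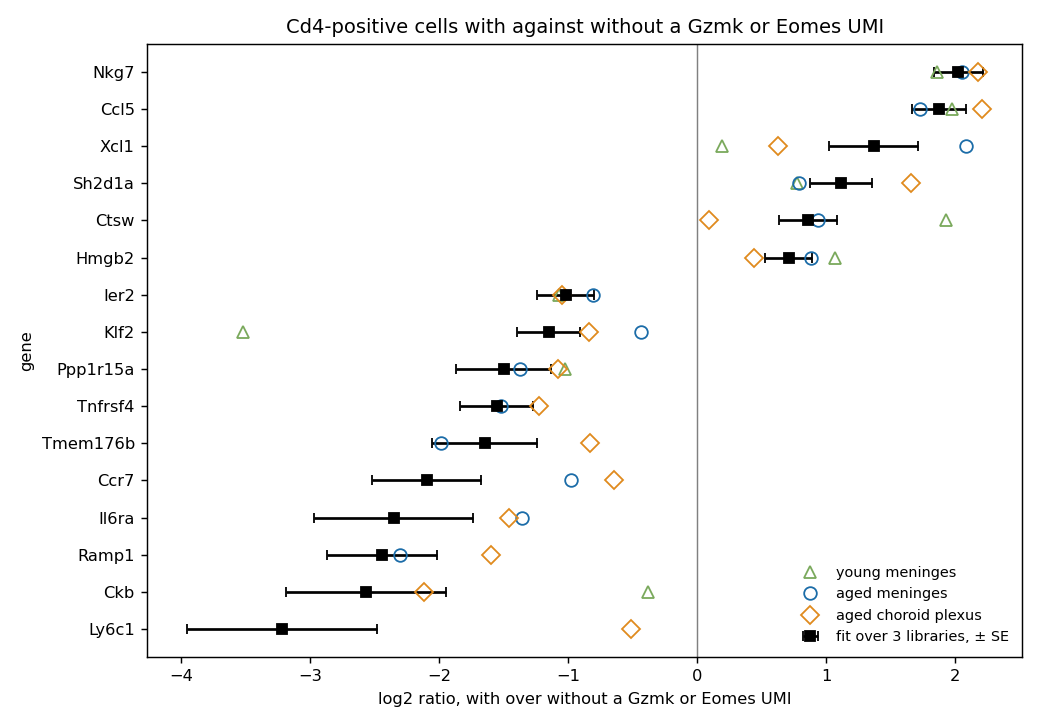
Log2 ratio of each gene in Cd4-positive cells with over those without a Gzmk or Eomes UMI, for genes called by edgeR with the same direction in 3 of 3 libraries and at least 100 UMIs; open symbols are single libraries (after adding 10 CPM, with no symbol where the cells had no UMI) and squares with bars are the fit with its SE. The symbols of Nkg7 span 1.86 to 2.18 and those of Ccl5 1.73 to 2.21, while those of Klf2 span -3.52 to -0.43.

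Of 5 listed chemokine ligands, 3 were tested and 2 rose (Ccl5 and Xcl1), with a median log2 fold of 1.37 against -0.02 over all genes. Of 12 cytotoxic granule genes, 4 were tested and 2 rose (Nkg7 and Ctsw), with a median log2 fold of 0.89, while Gzma, Gzmb, Gzmm, Prf1, Fasl, Crtam, Serpinb9 and Serpinb6b were too low to test. Prf1, the pore protein perforin, stood at 0, 0, 52.8 and 18.1 CPM and Gzmb at 0, 0, 26.4 and 0 CPM in Cd4-positive cells with Gzmk or Eomes. None of 11 tested effector transcription factor genes passed, with Runx3, which represses the CD4 program, at 88.3, 190 and 63.4 CPM against 66.4, 77.7 and 72.6 CPM (log2 fold 0.70, SE 0.33). Tbx21, the sister T-box factor of Eomes, had a log2 fold of -0.64 (SE 0.55). None of 6 tested inhibitory receptors passed (Pdcd1 0.17, SE 0.31, and Lag3 0.05, SE 0.42), and none of 5 tested genes of type 1 regulatory cells did. Il10, the cytokine of those cells, had no UMI in the 114 Cd4-positive cells and 2 UMIs in the 230 Cd4-negative ones.

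Chemokine and egress receptors, cytokine receptors and helper subset genes gave single calls. Among receptors, 1 of 7 tested was lower (Ccr7) and Cxcr3, the receptor for interferon-induced chemokines, had a log2 fold of 0.80 (SE 0.27, edgeR adjusted p = 0.291), with 618, 253 and 317 CPM against 72.6, 316 and 161 CPM in young meninges, aged meninges and aged choroid plexus. Il6ra was the 1 of 9 tested cytokine receptors that fell, Ifng the 1 of 5 tested Th1 genes that rose, and Sh2d1a the 1 of 2 tested Tfh genes. The only Th2 gene tested, Gata3, had a log2 fold of -0.51 (SE 0.37), and no Th17 gene was high enough. None of 6 residency, 5 antigen-response, 9 S100, annexin and galectin or 8 interferon-stimulated genes tested passed. A p that misses the threshold does not show that levels are alike.

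The number of marker UMIs per cell sorted these genes further. In aged meninges, Ccl5 stood at 2091 CPM in the 247 Cd4-positive cells with 0 UMIs of Gzmk and Eomes, 2533 CPM in the 25 cells with 1 UMI and 10134 CPM in the 39 cells with 2 or more. In aged choroid plexus it stood at 1133, 2670 and 7955 CPM in 169, 20 and 18 cells. Cells with 1 UMI thus lay near those with none in the meninges (interval 2195 to 2909 against 1977 to 2210 CPM) and clearly below those with 2 or more in both tissues. Median depth in aged meninges was 2172, 2723 and 2174 UMIs, and in aged choroid plexus 2550, 2593 and 2808 UMIs. The part of depth in these steps was not tested.

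Nkg7 also rose by step, with 331, 630 and 1962 CPM in aged meninges and 252, 878 and 1485 CPM in aged choroid plexus. Unlike that of Ccl5, its interval in aged meninges was already apart at 1 UMI (468 to 831 against 286 to 380 CPM with 0 UMIs). Tnfsf8 ran the other way, with 235, 139 and 99.9 CPM and 264, 215 and 55.0 CPM, though its intervals overlapped between neighbouring steps. Ccl4, a chemokine akin to Ccl5, stood at 57.9, 63.0 and 972 CPM in the meninges but at 60.5, 53.8 and 18.3 CPM in the choroid plexus. A single cell gave 45 of the 112 Ccl4 UMIs in the meninges.

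**Figure D4:**
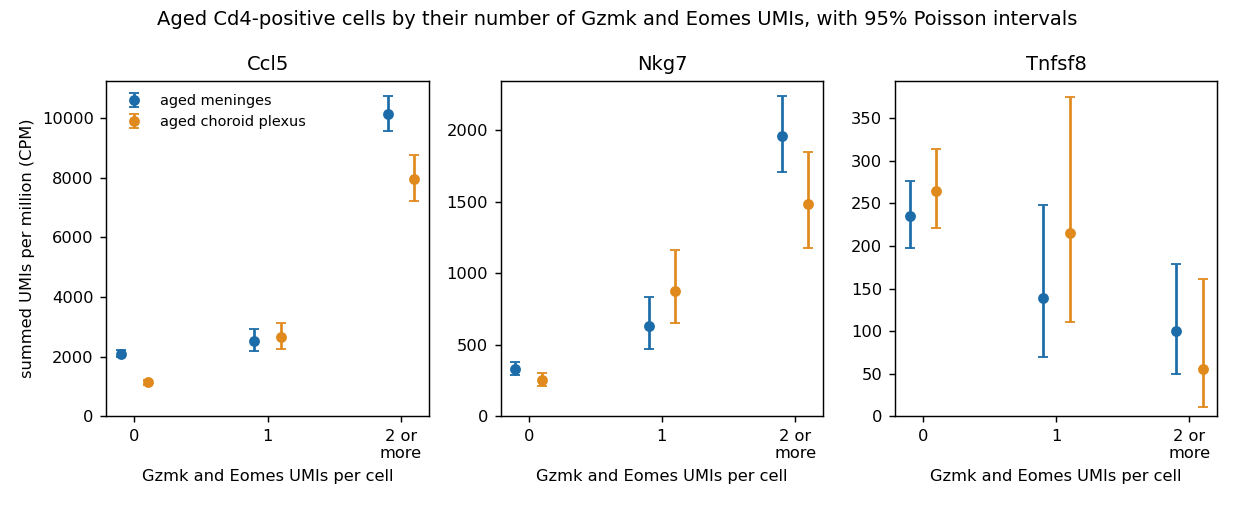
Ccl5, Nkg7 and Tnfsf8 as summed UMIs scaled to CPM in Cd4-positive cells of the aged libraries, by the number of Gzmk and Eomes UMIs in the cell (0, 1 or 2 and more); points are single libraries and bars are 95% Poisson intervals. Ccl5 goes from 2091 to 10134 CPM in aged meninges and from 1133 to 7955 CPM in aged choroid plexus, while Tnfsf8 goes from 235 to 99.9 and from 264 to 55.0 CPM.

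The Cd4-positive cells without Gzmk or Eomes can include naive cells, so the comparison was repeated among cells without a Ccr7 UMI and with an S100a4 UMI. Only the aged libraries had enough cells (25 against 98 in meninges and 18 against 72 in choroid plexus). Of 2445 genes tested, 32 were higher (1.31%) and 15 lower (0.613%) by edgeR, 210 had an unadjusted p under 0.05, and DESeq2 called 3 higher and 0 lower. Ccl5 stood at 4116 against 1546 CPM in aged meninges and at 6010 against 1229 CPM in aged choroid plexus (log2 fold 1.78, SE 0.11). Nkg7 stood at 1283 against 391 CPM and at 1411 against 340 CPM (log2 fold 1.81, SE 0.18). Both differences therefore held among such cells of the 2 aged libraries and were called by both tools, as was Cd74. Other B cell genes were called higher here by edgeR alone, the light chain gene Igkv12-46 with 76 UMIs against 0 and the B cell factor gene Ebf1 with 16 against 0. With cells that carried a B cell gene left out, 2 genes were called higher and 0 lower by edgeR. With each cell thinned to 1000 UMIs no gene passed, and the log2 folds were 1.73 for Ccl5 and 1.87 for Nkg7 with edgeR adjusted p-values of 0.122 and 0.0952. Without cells that carried a B cell gene they were 2.05 and 1.66, with edgeR adjusted p-values of 0.302 and 0.0604.

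The young meninges, with 4 such cells, did not enter that test. There Ccl5 stood at 2226 CPM in the 4 cells with Gzmk or Eomes (1541 to 3110) and at 4226 CPM in the 30 cells without (3881 to 4593), so that the order was the reverse of the aged libraries. Of the lists, 3 of 4 tested cycling genes rose (Birc5, Stmn1 and Pclaf), again by edgeR alone. No gene of 7 tested naive and quiescent genes passed among these antigen-experienced cells, with Klf2 at a log2 fold of 0.01 (SE 0.26).

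CD8 T cells with a Gzmk or Eomes UMI (46, 32, 159 and 204 cells) share the marker genes of the rule and were compared next. Of 2988 genes tested over 3 libraries, 41 were higher (1.37%) and 83 lower (2.78%) in the Cd4-positive cells by edgeR, with 348 at an unadjusted p under 0.05 and 7 higher and 40 lower by DESeq2. Of the 124 genes called, 52 encode ribosomal proteins, all lower by 0.33 to 0.63 on the log2 scale. Without aged meninges 2 genes were higher and 1 lower, without aged choroid plexus 15 and 18, and without young meninges 82 and 124. DESeq2 gave no adjusted p to 51 of the genes called.

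Helper genes were higher in the Cd4-positive cells. Cd40lg, the ligand by which helper cells license B cells and dendritic cells, stood at 265, 174 and 199 CPM in young meninges, aged meninges and aged choroid plexus against 3.86, 34.0 and 10.1 CPM in the CD8 T cells (log2 fold 3.28, SE 0.41, edgeR adjusted p = 3.4e-06). Izumo1r, a folate receptor of CD4 T cells, stood at 177, 248 and 181 against 38.6, 50.0012 and 15.8 CPM (log2 fold 2.49, SE 0.32, edgeR adjusted p = 4.5e-06). Icos, a costimulatory receptor, had a log2 fold of 2.12 (SE 0.30) and Maf, a transcription factor of cytokine-producing helper cells, of 2.51 (SE 0.33). So all 3 tested CD4-lineage genes were higher, with a median log2 fold of 2.49 against 0.00 over all genes. The B cell marker Ighm was called higher too (log2 fold 1.34, SE 0.34, edgeR adjusted p = 0.015), and B cell markers were in 33.3, 15.6 and 28.9% of the Cd4-positive cells against 41.3, 6.92 and 12.7% of the CD8 T cells in young meninges, aged meninges and aged choroid plexus. Without cells that carried a B cell marker Cd40lg had a log2 fold of 3.21, Izumo1r of 2.81 and Maf of 2.50, and edgeR called all of these and Icos. The call of Cd40lg held without any 1 library, and those of Izumo1r, Icos and Maf were lost without aged meninges (edgeR adjusted p = 0.124, 0.153 and 0.110).

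NK-type receptors and granule genes were lower. Klrd1, which encodes CD94, stood at 0, 10.6 and 9.06 CPM against 197, 228 and 209 CPM in the CD8 T cells (log2 fold -4.68, SE 0.45, edgeR adjusted p = 3.1e-08). Klrk1, which encodes the activating receptor NKG2D, stood at 0, 0 and 9.06 against 124, 128 and 137 CPM, from 1 UMI in 111 cells. Gzmb stood at 0, 26.4 and 0 CPM against 50.2, 136 and 173 CPM (log2 fold -3.34, SE 0.50, edgeR adjusted p = 6.4e-05). Of 7 tested CD8-lineage genes 6 were lower, with a median log2 fold of -2.43, as were 4 of 5 tested NK-type receptors and adaptors and 4 of 6 tested cytotoxic granule genes (Gzmb, Nkg7, Cst7 and Ctsw). Against the Cd4-positive cells without Gzmk or Eomes, only 3 of 8 listed CD8-lineage and 2 of 10 NK-type genes were high enough to test. Genes high in only 1 arm can enter a test through that arm, here and among the CD4-lineage genes above, so nothing is drawn from these list counts. Without aged meninges none of these list calls held, with Klrd1 and Klrk1 at edgeR adjusted p-values of 0.0634 and 0.124 and Gzmb too low to test, and Ccl5 was the 1 gene called lower. With at least 2 marker UMIs in both arms 4 genes were called lower, Klrd1, Ly6c2, Nkg7 and Ccl5. Over the 12 alternatives Klrd1 was called in 9, Klrk1 in 8 and Gzmb in 6.

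Ccl5 and Nkg7 were lower than in the CD8 T cells as well. Ccl5 stood at 3178, 6951 and 5282 CPM against 7603, 14618 and 10747 CPM in young meninges, aged meninges and aged choroid plexus (log2 fold -1.25, SE 0.10, edgeR adjusted p = 4.1e-10), and Nkg7 had a log2 fold of -1.19 (SE 0.13, edgeR adjusted p = 2.6e-07). Both tools called both genes. All 3 tested chemokine genes were lower, with Xcl1 at -1.68 (SE 0.21) and Ccl4 at -0.71 (SE 0.20), the last of which turned to 0.35 when cells were thinned to 1000 UMIs. Without aged meninges the calls of Nkg7, Xcl1 and Ccl4 were lost (edgeR adjusted p = 0.112, 0.145 and 0.587), and that of Ccl4 also without aged choroid plexus (0.511). Among cells with 2 or more marker UMIs in both arms, the log2 folds were smaller, at -0.79 for Ccl5 and -0.85 for Nkg7, and both calls held (edgeR adjusted p = 0.0034 and 0.0091). Ifng and Tnf were higher in the Cd4-positive cells by edgeR (log2 fold 2.20, SE 0.40, and 1.45, SE 0.41), and were at 0.91 and 0.44 without aged choroid plexus, the library with the single Ifng-rich cell.

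**Figure D5:**
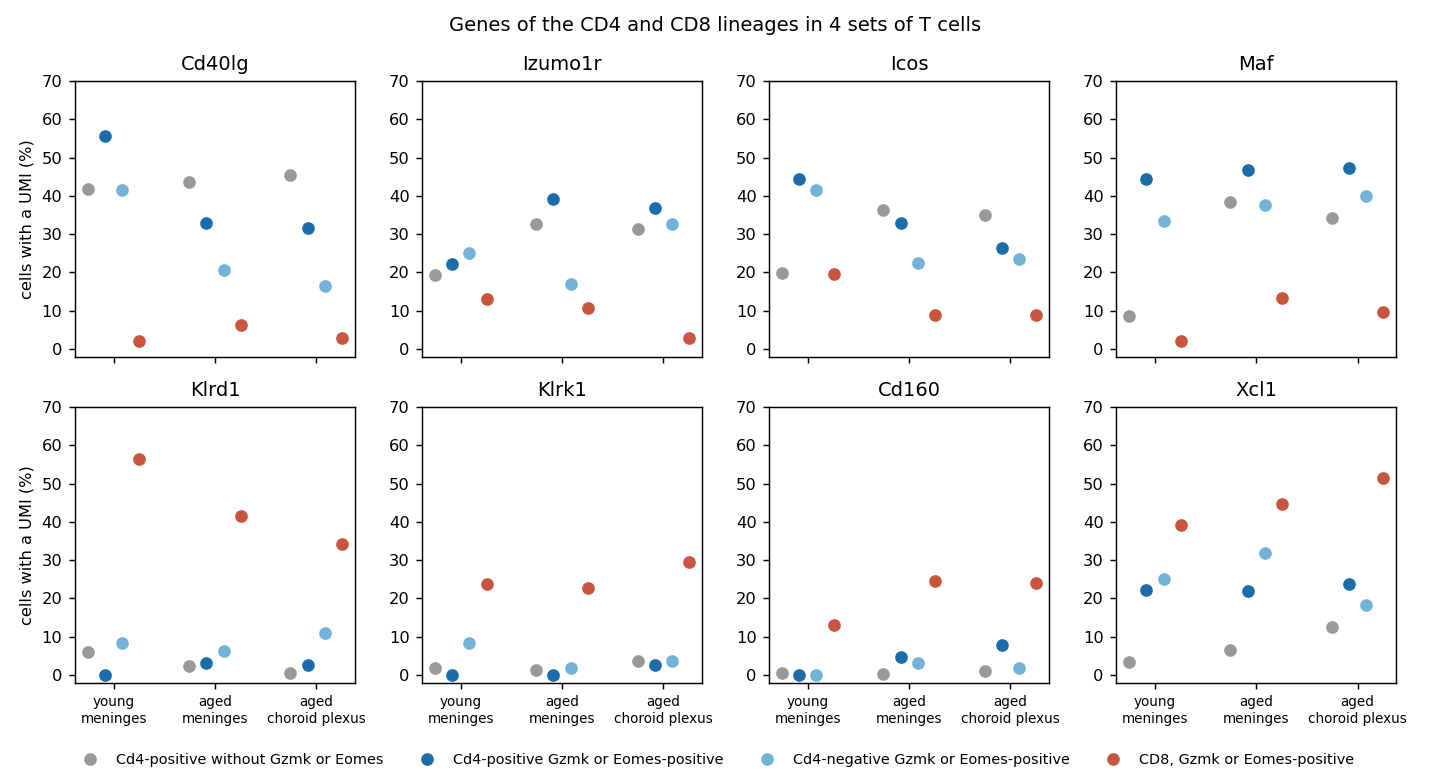
Percent of cells with a UMI of each of 4 helper genes (top) and 4 genes of CD8 T and NK cells (bottom) in 4 sets of T cells from 3 libraries; each point is 1 library and young choroid plexus is not drawn. Cd4-positive cells with Gzmk or Eomes lie near the Cd4-positive cells without it for Klrd1, Klrk1 and Cd160, at the bottom of the scale, and the CD8 T cells lie above them (Klrd1 in 56.5, 41.5 and 34.3% of CD8 T cells and in 0, 3.12 and 2.63% of Cd4-positive cells with Gzmk or Eomes). The Cd4-negative cells with Gzmk or Eomes also lie below the CD8 T cells. Their summed Klrd1 level was above that of the Cd4-positive cells with Gzmk or Eomes.

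A cell without a Cd4 UMI cannot be told from one whose Cd4 transcript was not captured, and the same holds for Cd8a and Cd8b1, so the 230 Cd4-negative cells have no lineage by rule. Of the Cd4-positive cells with Gzmk or Eomes, 77.8, 100, 82.8 and 63.2% had exactly 1 Cd4 UMI, whereas 4.35, 6.25, 13.2 and 11.8% of the CD8 T cells with Gzmk or Eomes had exactly 1 Cd8a or Cd8b1 UMI. A Cd4 UMI was found in 42.9, 50, 28.6 and 40.9% of the non-CD8 cells with Gzmk or Eomes and in 36.5, 38.2, 34.9 and 39.5% of those without, with overlapping intervals in each library. Among cells with both Cd8 and Gzmk or Eomes UMIs, 2.13, 8.57, 6.47 and 4.23% had a Cd4 UMI.

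The Cd4-negative cells were set against the same CD8 T cells as above, in a test added after seeing the data, so both comparisons share that arm. Of 4087 genes tested, 14 were higher (0.343%) and 11 lower (0.269%) by edgeR, with 275 at an unadjusted p under 0.05 and 5 higher and 4 lower by DESeq2. Of 5 tested CD4-lineage genes 4 were higher (Cd40lg, Izumo1r, Tnfrsf4 and Icos), with a median log2 fold of 1.93 against -0.01 over all genes. Of 7 tested CD8-lineage genes 4 were lower (Klrd1, Klrk1, Cd160 and Cd7), with a median of -2.16. Here too, a gene can enter the test through the arm where it is high, so nothing is drawn from these list counts. None of 10 tested cytotoxic granule genes passed. Without young meninges 55 were higher and 39 lower, and without aged meninges 8 and 6.

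Maf stood at 153, 241 and 230 CPM in the Cd4-negative cells of young meninges, aged meninges and aged choroid plexus against 3.86, 64.0 and 38.9 CPM in the CD8 T cells (log2 fold 2.25, SE 0.30, edgeR adjusted p = 0.00077). Cd40lg stood at 127, 137 and 98.5 against 3.86, 34.0 and 10.1 CPM (log2 fold 2.54, SE 0.40, edgeR adjusted p = 0.0035). Klrd1 stood at 25.5, 33.1 and 65.7 against 197, 228 and 209 CPM (log2 fold -2.47, SE 0.29, edgeR adjusted p = 0.00034), and Klrk1 had a log2 fold of -3.30 (SE 0.43). Maf, Cd5, Klrd1 and Klrk1 were called in each of 12 alternatives. Ccl5 in the Cd4-negative cells (8886, 10460 and 9419 CPM) did not pass the threshold against the CD8 T cells (7603, 14618 and 10747 CPM), with a log2 fold of -0.33 (SE 0.23), and Nkg7 stood at -0.81 (SE 0.20, edgeR adjusted p = 0.103).

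Few genes were called between Cd4-positive and Cd4-negative cells with Gzmk or Eomes. Of 1906 genes tested, 1 was higher (0.0525%) and 1 lower (0.0525%), with 47 at an unadjusted p under 0.05, and DESeq2 called the same numbers. Young meninges had 9 against 12 cells. Among 10 listed NK-type genes 0 were high enough to test, and among 8 CD8-lineage genes 2 were. Klrd1, at lower CPM in the Cd4-positive cells in the values above, was not tested here. The low count of calls thus does not show that the 2 sets are alike. The gene lower in Cd4-positive cells was Ccl5 (log2 fold -0.92, SE 0.15, edgeR adjusted p = 0.0253), at 3178, 6951 and 5282 CPM against 8886, 10460 and 9419 CPM. The gene higher was Gm42418, a transcript that overlaps ribosomal RNA, with a log2 fold of 0.89. The Ccl5 call was lost without young meninges or aged choroid plexus (edgeR adjusted p = 0.44 and 1.0), and among cells with 2 or more marker UMIs, which also left out young meninges with under 5 cells in an arm, the log2 fold was -0.20. CD4-lineage genes had a median log2 fold of 0.55 over 5 tested genes, with Tnfsf8 at 0.92 (SE 0.37), Cd40lg at 0.63 (SE 0.29), Icos at 0.55 (SE 0.28), Izumo1r at 0.46 (SE 0.28) and Tnfrsf4 at -0.35 (SE 0.36), none past the threshold.

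For age, aged and young Cd4-positive cells with Gzmk or Eomes were set side by side in each tissue, at 189462 against 33983 summed UMIs in meninges and 110369 against 11921 in choroid plexus. A gene was counted with at least 20 UMIs over both ages and when, after adding 10 CPM, its log2 ratio reached 1 upward or downward. Of 1553 such genes in meninges, 177 were higher (11.4%) and 79 lower (5.09%) in the aged cells, and of 775 in choroid plexus, 190 were higher (24.5%) and 57 lower (7.35%). The young side holds 9 and 3 cells, so these counts have no replicate check, and with at least 40 UMIs per gene they were 41 and 18 in meninges and 57 and 13 in choroid plexus.

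The 10 genes with the largest mean log2 ratio among those past the rule in both tissues included Ccl5 and S100a6, a calcium-binding protein of antigen-experienced cells, on the higher side. Ccl5 in meninges was 3178 CPM in the young and 6951 CPM in the aged cells (log2 ratio 1.13), and in choroid plexus at least 21.0-fold higher in the aged cells than the limit that 0 young UMIs allow. That limit covers counting error only and rests on 3 cells, each with 1 marker UMI. The 20 aged choroid plexus cells with 1 marker UMI stood at 2670 CPM of Ccl5. In the Cd4-positive cells without Gzmk or Eomes Ccl5 stood at 799, 428, 2091 and 1133 CPM and in the CD8 T cells at 7603, 5465, 14618 and 10747 CPM, so the aged level was the higher one in those cells too. S100a6 in meninges was 441 CPM in the young and 2159 CPM in the aged cells (log2 ratio 2.26) and was at 83.9 and 1758 CPM in choroid plexus, where the young value is 1 UMI. The Cd4-positive cells without Gzmk or Eomes showed S100a6 at 293, 337, 1883 and 1947 CPM, so this difference was not limited to the cells with it.

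On the lower side were Epsti1, an interferon-induced gene, and Tsc22d3, a glucocorticoid-induced one. Epsti1 in meninges was 765 CPM in the young and 259 CPM in the aged cells (26 and 49 UMIs), and in choroid plexus 671 against 199 CPM (8 and 22 UMIs). In Cd4-positive cells without Gzmk or Eomes it stood at 177, 143, 220 and 149 CPM. Tsc22d3 was 559 against 243 CPM and 587 against 154 CPM, and in the cells without 787, 587, 352 and 200 CPM. The other genes among these 10 were Cd74, Cox7b, Ctla2a, Cwc15, Hist1h2ap, Ifng, Ndufs5 and Stmn1, each with 0 UMIs in young choroid plexus.

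T cell receptor V genes were spread over many members. Of the 59 Cd4-positive cells with Gzmk or Eomes and a Trbv UMI in aged meninges, 17 Trbv genes were the most counted in a cell, and Trbv13-2 led with 8 cells (13.6%, 6.04 to 24.98%). In aged choroid plexus 37 cells had 13 Trbv genes, with Trbv13-2 and Trbv3 in 7 cells each (18.9%). Among the Cd4-positive cells without Gzmk or Eomes, the leading gene was Trbv3 in aged meninges (11.4%) and Trbv13-2 in aged choroid plexus (17.1%). Clones were not resolved here.

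B cell markers were also found in 75.0, 66.7, 11.9 and 27.3% of the Cd4-negative cells with Gzmk or Eomes, with Ighm the most counted. The NK cell genes Ncr1, Klra4 and Klra8, 5 fibroblast genes and 3 neutrophil genes had no UMI in any of the 344 cells. Macrophage genes gave 10 UMIs in 2 of the 64 Cd4-positive cells of aged meninges, C1qb the most with 4, and 0 in the other libraries' Cd4-positive cells. Haemoglobin genes gave 13 UMIs in 10 of those 64 cells, Hbb-bs the most with 10, and 48 UMIs in 44 of the 247 Cd4-positive cells without Gzmk or Eomes (15.6 and 17.8% of cells). In the Cd4-negative cells of aged meninges they gave 36 UMIs in 35 of 160 cells (21.9%). Of the choroid plexus epithelium genes, Enpp2 had 1 UMI in 1 cell of aged meninges. Median mitochondrial shares were 1.54, 2.93, 2.05 and 2.83% of UMIs in Cd4-positive cells with Gzmk or Eomes and 2.42, 2.88, 2.54 and 2.58% in those without. No doublets were removed, and the 5% of cells with the highest Scrublet score in each library held 3 of 21, 1 of 6, 12 of 224 and 5 of 93 of the cells described here.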

How the data were processed

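The authors made the deposited matrices, UMI counts of 31053 genes in each cell, with Cell Ranger. The file headers give version 3.1.0 and the submitters' processing notes 5.1.0, STAR and mm10, so the version is not settled. No normalization had been applied by the authors, and the total UMI count per library sets the precision.

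Cells were kept by the study's limits and gated by single UMIs as described above. Counts were summed per library and set of cells and scaled to CPM, or tested with edgeR 4.0.16 (quasi-likelihood, TMM, filterByExpr, library as a block, pairs with at least 5 cells per arm, Benjamini-Hochberg over all genes, called at an adjusted p under 0.05) and, as an alternative, with DESeq2 1.42.0 (R 4.3.3). The study tested cells with a Wilcoxon test. Sums per library were used here because cells are not replicates. Gate genes, and Ccr7 and S100a4 where they gated, were left out of counts of calls. Thinning drew 1000 UMIs per cell without replacement. Intervals are 95% Clopper-Pearson for shares and 95% Poisson for levels and, with the limit of 3 UMIs for a count of 0, cover counting error only. The edgeR step was tested on simulated data for the Cd4-positive cells with against without Gzmk or Eomes. It recovered 79 of 100 genes changed by a log2 fold of 2 and 19 of 100 changed by 1. Of 4248 unchanged genes, 3 were called. The simulated counts were sums per library, with the same fold in every library and no single cells. Calls that rest on single cells, such as that of Cd74, are thus not covered by these numbers. Tables were made in Python 3.11.15 with numpy 2.4.6, pandas 2.3.3, scipy 1.17.1, scanpy 1.11.5 and matplotlib 3.10.9.

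The members and gene lists were chosen with earlier results of these data known. Genes named are Gzmk, Eomes, Ccl5, Cd4, those of the lists, and per test the 12 largest and 12 smallest log2 folds among called genes with 1 direction in every library and at least 100 UMIs, and for age the 10 largest and 10 smallest mean log2 ratios among genes past the rule in both tissues. Genes of ribosomal proteins, mitochondria, immunoglobulins and T cell receptors, and genes with Gm or Rik names, were left out of that rule. Hist1h1e, Hist2h2bb, Socs2, Sostdc1, Spp1, Zfp36, Gm42418, Igkv12-46, Ebf1 and the Trbv genes were named outside it after their values were seen. Values of some listed genes are not reported here. Of the gene identifiers, 30934 were found in GENCODE vM21 (GRCm38). Alternatives were the second tool, DESeq2-type size factors, no filter on low counts, no block, thinning, members with at least 2 UMIs or by Gzmk or Eomes alone, removal of the 5% highest Scrublet scores or of cells with B cell genes, and leaving out each library.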

Additional observations from a re-analysis of the deposited data

Results flagged for a closer look

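Among the genes named, 4 moved in opposite directions with age in meninges and choroid plexus in the Cd4-positive cells with Gzmk or Eomes, with 1 library on each side. The difference was not tested, and young choroid plexus holds 3 of these cells. Cxcr3 in meninges was 618 CPM in the young and 253 CPM in the aged cells (log2 ratio -1.25 after adding 10 CPM) but 83.9 and 317 CPM in choroid plexus (1.80). Cxcr6, a residency receptor, was 500 and 211 CPM in meninges (-1.21) but 0 and 299 CPM in choroid plexus, where the ratio of 4.95 is set by the 10 CPM added and the level was at least 1.19-fold higher than the limit that 0 UMIs allow. Klf2 was 88.3 and 385 CPM in meninges (2.01) and 671 and 163 CPM in choroid plexus (-1.98). Tcf7, a factor of naive and memory T cells, was 88.3 and 190 CPM in meninges (1.03) and 839 and 308 CPM in choroid plexus (-1.42). Among these young values, 83.9 CPM in choroid plexus is 1 UMI and 88.3 CPM in meninges is 3 UMIs.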

How the results depend on the processing

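Of the shares of non-CD8 T cells, those thinned to 1000 UMIs (1.23, 0.478, 16.9 and 10.8%), with at least 2 UMIs (1.37, 0.238, 16.6 and 10.6%) or by Eomes alone (0.304, 0, 5.90 and 3.07%) moved by more than their counting intervals in at least 1 library, and in each of them both aged shares stayed above both young ones. Counts of genes called by edgeR moved with most settings. For Cd4-positive cells with against without Gzmk or Eomes (14 higher, 15 lower), they were 3 and 1 by DESeq2, 1 and 0 without the library block, 4 and 1 when thinned, 7 and 9 without the 5% highest Scrublet scores, 2 and 1 without cells with B cell genes, 32 lower without the filter on low counts, and 3 to 26 higher and 5 to 13 lower with 1 library left out. Among cells with S100a4 and without Ccr7 (32 and 15), they were 3 and 0 by DESeq2, 9 and 2 without the block, 0 and 0 when thinned, 2 and 0 without cells with B cell genes, and 1 lower with at least 2 marker UMIs. Against CD8 T cells (41 and 83), they were 7 and 40 by DESeq2, 5 and 6 without the block, 20 and 20 when thinned, 6 and 4 with at least 2 marker UMIs, 51 lower without the highest Scrublet scores, and 2 to 82 and 1 to 124 with 1 library left out. Between Cd4-positive and Cd4-negative cells (1 and 1), they were 9 and 7 without the filter, 0 and 0 without the block or with at least 2 marker UMIs, 0 lower when thinned, 0 higher without the highest Scrublet scores, 2 higher by Gzmk alone or without cells with B cell genes, and 0 to 1 and 0 to 3 with 1 library left out. For Cd4-negative against CD8 T cells (14 and 11), they were 5 and 4 by DESeq2, 22 and 22 without the filter, 6 and 5 without the block, 25 higher with at least 2 marker UMIs, 44 and 38 without cells with B cell genes, and 8 to 55 and 6 to 39 with 1 library left out. In these last 2 comparisons, at least 2 marker UMIs and the removal of cells with B cell genes also took young meninges out of the fit, with under 5 cells in an arm, so 2 choices changed at once. Leaving out young meninges alone gave 1 and 0 in the former and 55 and 39 in the latter. For age, the counts in meninges (177 higher, 79 lower) were 38 lower with 50 CPM added, 478 and 299 at 10 UMIs or more, 41 and 18 at 40 or more, 67 and 50 when thinned, 107 higher with at least 2 marker UMIs and 371 and 274 over all cells with or without Cd4. In choroid plexus (190 and 57) they were 493 and 198, 57 and 13, 57 and 19, and 297 and 118 at 10 and 40 UMIs, thinned and over all cells. None of the 3 Cd4-positive cells of young choroid plexus had 2 marker UMIs. The cause of these moves was not tested. Of the genes named, 1 turned its direction in each of 2 tests when thinned, Tubb5 among cells with S100a4 (0.80 to -0.35) and Ccl4 against CD8 T cells (-0.71 to 0.35). Of 235, 170, 388, 12 and 222 values of named genes under these alternatives, in the order of the tests, 119, 75, 133, 5 and 46 lost their call with the direction kept. No paired analysis was possible because each group has 1 library and the labels pair none, and the block above pairs sets of cells within a library. Depth limits the young Cd4-positive cells (33983 and 11921 UMIs in all) and genes counted by few UMIs per cell.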
